A study of Mus musculus with 4 samples.

Results

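The 10 genes described here are among the cyclins, kinases and inhibitors that govern the G1 phase of the cell cycle, out of 24116 genes counted in mouse embryonic stem cells. Other CDK inhibitors, such as Cdkn1a and Cdkn2a, are not among the 10 and are described in a separate list. They are the D-type cyclins Ccnd1, Ccnd2 and Ccnd3, the E-type cyclins Ccne1 and Ccne2, the kinases Cdk2, Cdk4 and Cdk6, the inhibitor Cdkn1b (p27) and the CDK2-associated protein gene Cdk2ap1. Each was found in the count table by its Entrez gene number, and all 10 passed the low-count filter that left 14194 genes for testing. The genes were selected on their roles in G1 and with the measured log2 fold changes between knockout and wild type in view, that of Ccnd2 above all. The values of that contrast are therefore given for these genes as a description, with no test.

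The 4 RNA-seq libraries came from embryonic stem cells of strain 12910la, 2 from wild-type cells and 2 from cells whose titles say Kdm2a knockout. The genotype label of the same samples instead calls Kdm2a knocked down. The guide RNA and single clone described below go with the titles, but the RNA counts here do not settle the difference. Kdm2a encodes a demethylase of histone H3 lysine 36 whose CXXC zinc finger binds unmethylated CpG. All cells grew on gelatin in medium with 15% serum and 10 ng/ml LIF. The knockout line goes back to a single clone, expanded after a Kdm2a guide RNA was transfected and GFP-positive cells were sorted, so genotype and clone cannot be told apart. Whether the 2 libraries of a label stem from different cultures is not said, so a p-value here covers just the variation among these 4 libraries, which can be technical.

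Total counts were 18844246 to 19056529 per library. Kdm2a RNA was not lower under the knockout label, at 151 and 184 CPM (counts scaled to the TMM-adjusted library total) in wild type and 194 and 261 CPM in the libraries labelled knockout. Counts over a whole gene do not show whether its protein was lost, so directions below rest on the labels. Markers of embryonic stem cells summed to 6479 to 6729 CPM over 10 genes in wild type and to 5842 to 6977 CPM in the libraries labelled knockout. Of 14194 genes, 0 (0%) had an adjusted p under 0.05 by edgeR's quasi-likelihood test, and 242 (1.70%) had an unadjusted p under 0.05. DESeq2 called 2 genes, the edgeR likelihood ratio test 4 and limma-voom 0, and no G1 gene was among them.

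In a cell that leaves mitosis, growth factors raise D-type cyclins, which bind CDK4 or CDK6 and begin to phosphorylate the retinoblastoma protein RB. RB then releases E2F factors, which switch on cyclin E and the genes of DNA replication, and cyclin E with CDK2 completes the phosphorylation of RB. p27 binds and restrains cyclin-CDK2 complexes. Mouse embryonic stem cells are known for a short G1 phase, little cyclin D and cyclin E with CDK2 activity through most of the cycle, and D-type cyclins are known to become more abundant as these cells differentiate.

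Promoter windows of 7 of the 10 genes, 8 windows in all, were taken from RefSeq on GRCm38.p6. Those of Ccnd1, Ccnd2 and Ccne2 were not used here. The 4 windows below, each the 250 bases before an annotated start and written 5′ to 3′ on the gene's own strand, are shown for the motifs that link these genes to MYC, to E2F and to CpG islands. In Cdk4 (chr10:127063285-127063534, plus strand) and Cdk6 (chr5:3343643-3343892, plus strand) capitals mark CACGTG, the E-box bound by MYC and related factors. In Cdk2 (chr10:128705052-128705301, minus strand) capitals mark an E2F motif, that is TTT followed by 2 bases that are each C or G and then CGC. In Cdk2ap1 (chr5:124354629-124354878, minus strand) capitals mark every CpG.
Cdk4: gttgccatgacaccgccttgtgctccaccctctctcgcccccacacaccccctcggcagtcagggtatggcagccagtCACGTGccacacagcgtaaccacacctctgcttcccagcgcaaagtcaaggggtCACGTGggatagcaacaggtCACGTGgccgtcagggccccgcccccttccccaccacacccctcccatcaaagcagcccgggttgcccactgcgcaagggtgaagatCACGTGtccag
Cdk6: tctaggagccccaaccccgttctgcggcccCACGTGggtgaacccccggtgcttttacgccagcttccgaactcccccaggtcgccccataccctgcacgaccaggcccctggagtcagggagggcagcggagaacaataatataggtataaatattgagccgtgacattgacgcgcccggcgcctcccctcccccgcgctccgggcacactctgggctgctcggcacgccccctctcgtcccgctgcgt
Cdk2: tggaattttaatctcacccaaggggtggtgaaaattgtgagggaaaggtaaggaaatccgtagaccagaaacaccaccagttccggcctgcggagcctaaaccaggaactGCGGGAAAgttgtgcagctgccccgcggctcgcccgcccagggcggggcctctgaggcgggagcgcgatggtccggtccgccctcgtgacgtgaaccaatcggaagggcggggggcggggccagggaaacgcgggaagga
Cdk2ap1: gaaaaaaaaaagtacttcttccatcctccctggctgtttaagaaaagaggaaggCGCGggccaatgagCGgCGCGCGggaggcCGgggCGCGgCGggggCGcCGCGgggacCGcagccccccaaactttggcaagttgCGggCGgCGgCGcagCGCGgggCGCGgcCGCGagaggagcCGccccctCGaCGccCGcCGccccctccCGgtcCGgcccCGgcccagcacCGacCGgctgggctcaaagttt

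The Cdk4 window held CACGTG 4 times, which 7 of 32851 promoter windows (0.0213%) matched or exceeded. Cdk6 held it once, and 6.02% of all windows held at least 1 copy. Both strands were searched, and CACGTG reads the same on each. The E2F motif, searched on both strands, stood in the Cdk2 window alone among the 8 windows of these genes and in 1.86% of all windows. Every one of the 8 windows had more CpG than the median window, with 11 to 34 against a median of 6 over all windows. The 34 in Cdk2ap1 and in Ccne1 exceeded the count of 96.5% of windows. The windows compared were not limited to expressed genes, so these counts do not set the G1 genes apart from other expressed genes. These matches describe letters and do not show that a factor binds there.

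Compared per length, as CPM per kilobase of exon, Cdk4 was the most abundant G1 gene in every library and Ccnd2 or Cdk6 the least. Mean levels over the 4 libraries were 152 for Cdk4, 58.5 for Ccne1, 41.6 for Cdk2ap1 and 33.0 for Ccnd3. Ccnd1, Cdkn1b and Cdk2 followed at 19.8, 19.7 and 18.3. Ccne2 had 5.99, Cdk6 2.79 and Ccnd2 1.88. Neighbours in this order overlapped in range over the libraries, except that Cdk4 stayed above Ccne1, Ccnd3 above Ccnd1, Cdk2 above Ccne2 and Ccne2 above Cdk6. With the longest transcript as length, Ccnd3 moved above Cdk2ap1 and Cdk2 above Ccnd1 and Cdkn1b, and the level of Ccnd3 was 75.1 in place of 33.0.

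**Figure D1:**
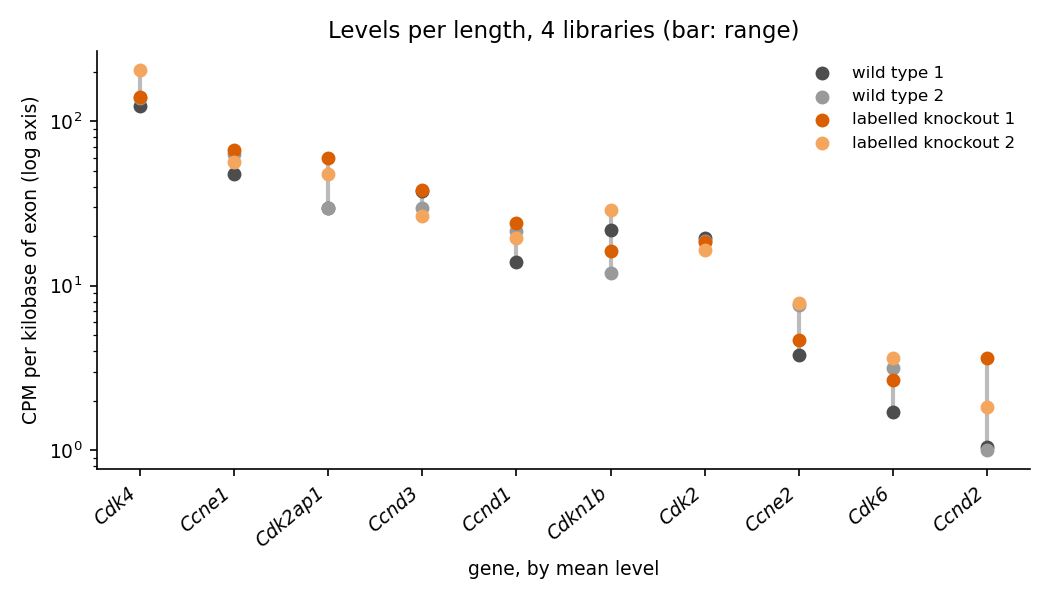
Level of each G1 gene per kilobase of exon (CPM per kilobase, log axis) in the 4 libraries, with grey bars for the range. Cdk4 stood highest, with 124 to 206, and Ccnd2 lay between 1.00 and 3.65.

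Among the D-type cyclins, the activating partners of CDK4 and CDK6, Ccnd3 carried most of the RNA and Ccnd2 the least. Ccnd3 (chromosome 17, 47505051 to 47599689) had 333 and 259 CPM in wild type and 335 and 232 CPM in the libraries labelled knockout. Wild type 1 and knockout 1 were nearly equal and the high pair, so the labels overlapped. The log2 fold change, knockout minus wild type, was -0.06 (SE 0.26), and it was 0.18 without knockout 2, 0.13 without wild type 1, -0.22 without wild type 2 and -0.35 without knockout 1.

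Ccnd2 (Entrez gene 12444, chromosome 6, 127125162 to 127152188) was the G1 gene with the largest difference between labels. Wild type gave 188 and 182 counts, knockout 1 gave 658 and knockout 2 gave 314. Scaled, these were 9.82 and 9.44 CPM against 34.4 and 17.3 CPM. Both libraries labelled knockout lay above both wild-type libraries, and knockout 1 was far above knockout 2. The means were 9.63 ± 0.273 CPM for wild type and 25.8 ± 12.1 CPM under the knockout label (SD, n = 2 each), a ratio of 2.68 and a log2 fold change of 1.42 (SE 0.41). Exact Poisson 95% intervals, which cover counting error only, were 8.47 to 11.3 and 8.12 to 10.9 CPM in wild type, 31.8 to 37.1 in knockout 1 and 15.4 to 19.3 in knockout 2. The distance between the libraries labelled knockout, -0.99 on the log2 scale (knockout 2 minus knockout 1), was thus larger than counting error. Without knockout 1 the log2 fold change was 0.84, and without knockout 2 it was 1.84.

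Markers of other cell types are given beside this difference, since such cells can hold D-type cyclins. Summed over 10 neural genes they came to 96.6 and 125 CPM in wild type and to 124 in knockout 1 and 169 in knockout 2, with Tubb3 the highest and Neurog2 and Dcx at 0 counts. Mesoderm genes summed to 17.9 and 22.2 CPM against 15.8 and 33.1, and endoderm genes to 15.4 and 8.19 CPM against 12.9 and 20.6, with Afp at 0 counts. Fibroblast genes summed to 94.3 and 41.1 CPM against 67.5 and 37.0, with Lum at 0 counts, and trophoblast genes to 115 and 51.6 CPM against 78.4 and 97.0, with Prl3d1 at 0 counts. The highest genes were Eomes for mesoderm, Gata4 for endoderm, Thy1 for fibroblasts and Tfap2c for trophoblast. Of 10 genes in each list, the low-count filter kept 5 neural, 5 mesoderm, 7 endoderm, 5 fibroblast and 6 trophoblast genes. The part of such cells in the Ccnd2 values was not tested, and in bulk RNA more cells of a type cannot be told apart from more RNA per cell.

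Ccnd1 (chromosome 7, 144929931 to 144939831), the D-type cyclin most closely tied to growth factor signals, had 65.5 and 101 CPM in wild type and 113 and 92.1 CPM in the libraries labelled knockout. Wild type 1 was the low library and wild type 2 lay between the libraries labelled knockout, so the labels overlapped. The log2 fold change of 0.30 (SE 0.28) was 0.03 without wild type 1, 0.14 without knockout 1 and 0.66 without wild type 2.

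As a share of the summed D-cyclin level per kilobase, Ccnd2 made up 1.97% and 1.93% in wild type, 5.55% in knockout 1 and 3.84% in knockout 2. Ccnd3 held 71.7% in wild type 1 and 55.3% to 57.9% in the other 3 libraries, where Ccnd1 held 36.6% to 41.3% against 26.3% in wild type 1. The summed level itself was 52.9 and 52.0 CPM per kilobase in wild type and 65.9 and 47.8 under the knockout label. Ccnd2 was therefore a small part of D-cyclin RNA in each library, and the shift from Ccnd3 towards Ccnd1 ran between wild type 1 and the rest, not between the labels. With the longest transcript as length, the Ccnd2 share was 1.47% and 1.56% in wild type and 4.43% and 3.12% under the knockout label. The shares of the other genes depended more on the length used. Ccnd3 then held 81.9% in wild type 1 and 68.7% to 70.8% in the other 3 libraries, and Ccnd1 16.6% against 24.8% to 28.2%.

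**Figure D2:**
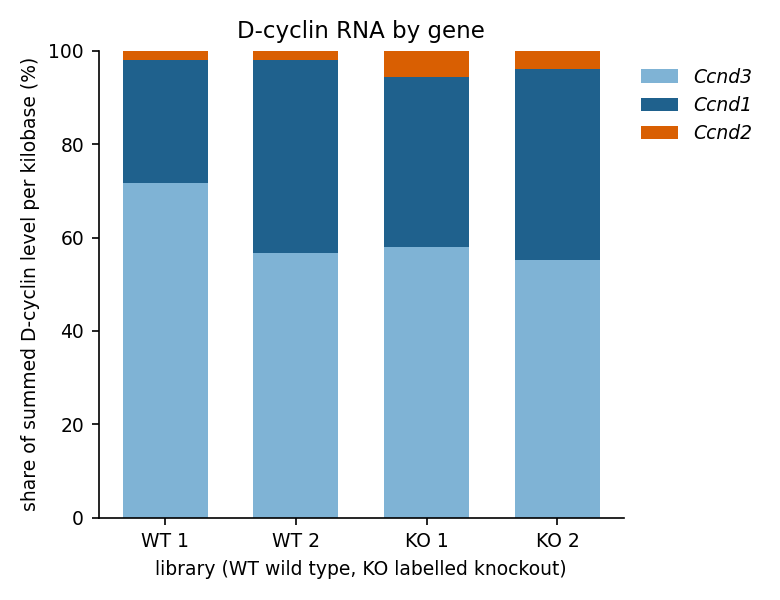
Share of the summed D-cyclin level per kilobase (percent, exon length) held by Ccnd3, Ccnd1 and Ccnd2 in each library. The Ccnd2 segment was 1.97% and 1.93% in wild type, 5.55% in knockout 1 and 3.84% in knockout 2.

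The kinases that D-type cyclins activate differed in level. Cdk4 (chromosome 10, 127063535 to 127067288) had 403 and 452 CPM in wild type, 457 in knockout 1 and 668 in knockout 2. Knockout 2 stood apart, while knockout 1 exceeded wild type 2 so narrowly that the order turned when libraries were scaled by their totals only. The means were 428 ± 34.0 and 563 ± 149 CPM (SD, n = 2 each), with a log2 fold change of 0.40 (SE 0.24) that was 0.10 without knockout 2 and 0.64 without knockout 1.

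Cdk6 (chromosome 5, 3341004 to 3531008), which can stand in for Cdk4, had 24.0 and 44.0 CPM in wild type and 37.6 and 50.6 CPM under the knockout label. Wild type 1 was lowest and the labels overlapped. The log2 fold change of 0.37 (SE 0.35) was 0.88 without wild type 2, 0.57 without knockout 1, 0.14 without knockout 2 and 0.0040 without wild type 1. Per kilobase, Cdk6 made up 1.37% to 2.21% of the sum of both kinases in the 4 libraries, so nearly all of this RNA was Cdk4.

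Myc encodes a factor that recognises CACGTG, but its binding at the Cdk4 and Cdk6 windows was not measured. Myc RNA had 16.2 CPM in wild type 1 and 72.3 in wild type 2, and 65.9 and 59.9 CPM in the libraries labelled knockout. Wild type 1 was far below the other libraries. Mycn, the more abundant member of the family here, had 182 and 184 CPM in wild type and 230 and 153 CPM under the knockout label, with knockout 2 the lowest library. Whether MYC proteins have a part in the Cdk4 and Cdk6 levels was not tested.

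The E-type cyclins and CDK2, which act after the D-type cyclins, had log2 fold changes between -0.13 and 0.16. Ccne1 (chromosome 7, 38097984 to 38107490) had 127 and 168 CPM in wild type and 178 and 150 CPM under the knockout label, so the labels overlapped, with a log2 fold change of 0.16 (SE 0.24). Ccne2 (chromosome 4, 11190433 to 11204779) had 13.2 CPM in wild type 1 and 16.3 in knockout 1, but 26.9 in wild type 2 and 27.4 in knockout 2. Its libraries thus split by number and not by label, and its log2 fold change was 0.13 (SE 0.44). Ccne1 made up 87.8% to 93.5% of the summed E-cyclin level per kilobase. With 1 library left out, the log2 fold change of Ccne1 ranged from -0.03 (without wild type 1) to 0.39 (without wild type 2). That of Ccne2 was -0.30 without wild type 1 and also without knockout 2, 0.45 without knockout 1 and 0.74 without wild type 2.

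Cdk2 (chromosome 10, 128697938 to 128705051), the partner of cyclin E, had 122 and 116 CPM in wild type and 115 and 103 CPM under the knockout label. It was the steadiest of these genes, its highest library being 1.19 times its lowest. Both libraries labelled knockout lay below both wild-type libraries, by a small margin in knockout 1, and the log2 fold change was -0.13 (SE 0.21), from -0.22 without knockout 1 to -0.05 without knockout 2.

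Cdkn1b (chromosome 6, 134920401 to 134925525), which encodes p27, had 99.0 and 54.3 CPM in wild type and 74.5 and 131 CPM under the knockout label. Knockout 2 was the highest library and wild type 2 the lowest, with wild type 1 above knockout 1. The distances within each label, -0.87 in wild type and 0.82 under the knockout label (replicate 2 minus 1, log2), were both larger than the log2 fold change of 0.43 (SE 0.38). That fold change was -0.04 without knockout 2, 0.06 without wild type 2, 0.78 without knockout 1 and 0.92 without wild type 1.

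Cdk2ap1 (Entrez gene 13445, chromosome 5, 124345439 to 124354628) encodes a protein that binds CDK2 and lowers its activity, and that also belongs to the chromatin-remodelling complex NuRD. Wild type gave 1177 and 1194 counts, knockout 1 gave 2364 and knockout 2 gave 1801. Scaled, these were 61.5 and 61.9 CPM against 124 and 99.0 CPM. The wild-type libraries were nearly equal and both libraries labelled knockout lay well above them. The means were 61.7 ± 0.289 and 111 ± 17.3 CPM (SD, n = 2 each), a ratio of 1.80 and a log2 fold change of 0.85 (SE 0.23), which was 0.68 to 1.00 when any 1 library was left out.

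**Figure D3:**
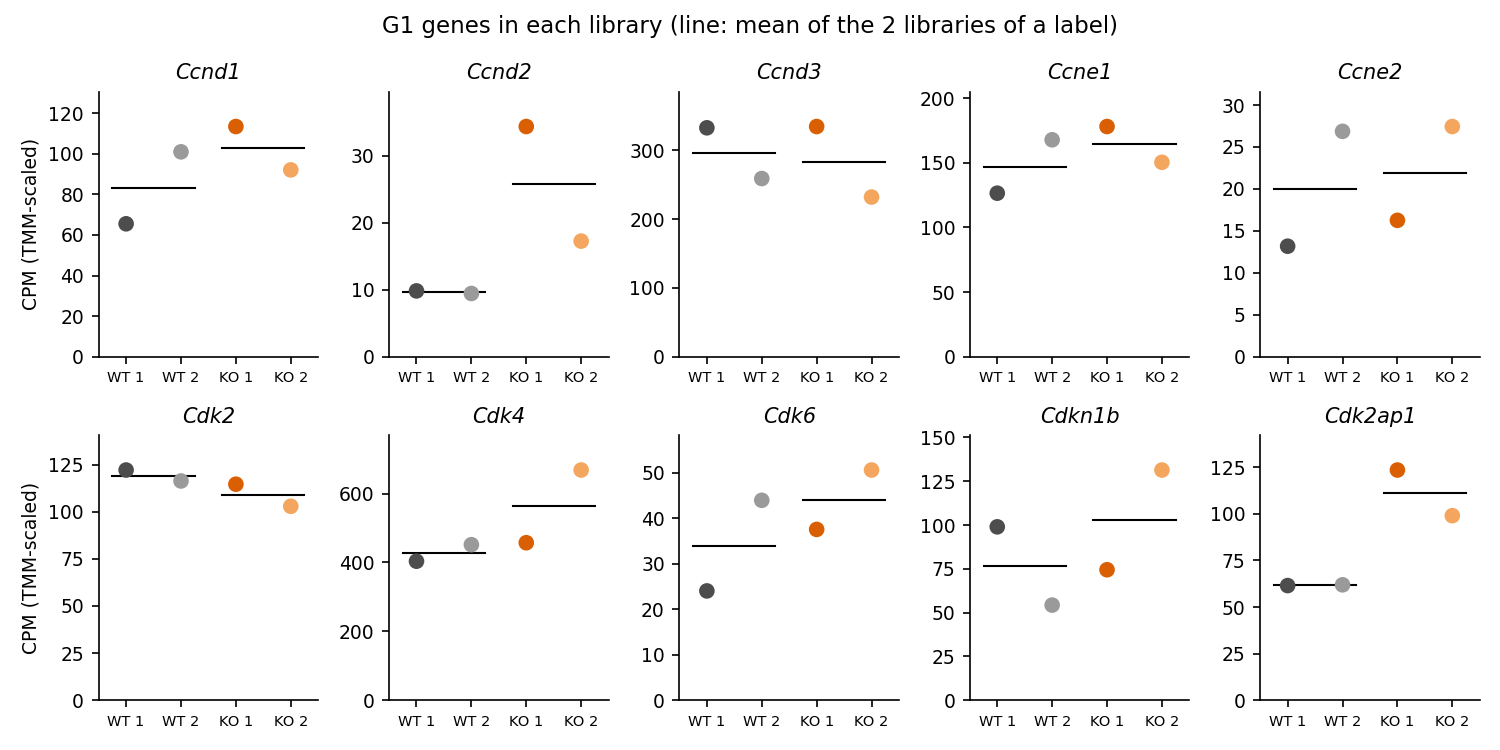
TMM-scaled CPM (axes from 0) of each G1 gene in the wild-type (WT) libraries and those labelled knockout (KO), with a line at the mean of each pair. Ccnd2 and Cdk2ap1 have level wild-type pairs with both other libraries above, whereas Ccne2 splits by library number.

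Ccnd2 and Cdk2ap1 also had similar profiles over the libraries. Among 10777 other genes that averaged 5 CPM or more, Cdk2ap1 had the profile nearest to that of Ccnd2, with a Euclidean distance of 0.68 between centred log2 CPM over 4 libraries. Ankrd34a (distance 0.69), Csrnp3 (0.79), Ftl1 (0.81) and H1f2 (0.82) followed. Ftl1, the ferritin light chain, had 498 and 267 CPM in wild type and 872 and 718 CPM under the knockout label. H1f2, a linker histone, had 8.36 and 6.48 CPM against 13.4 and 10.4 CPM. A likeness over 4 libraries describes these libraries only, and Cdk2ap1 had been placed in the group with its values known. The profile also takes in the difference between labels, which was known when both genes were chosen. This rank therefore adds no support for a link between Ccnd2 and Cdk2ap1.

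As a group, 8 of the 10 genes had a positive log2 fold change and 2 a negative one. Over all 14194 genes tested, 7172 were positive and 7022 negative. The median of the 10 genes was 0.34, against 0.0029 over all genes tested. Libraries were separated by label for 3 genes on the higher side (Ccnd2, Cdk2ap1 and Cdk4), where 11.7% of all genes were, and for 1 on the lower side (Cdk2), where 12.7% were, which makes 4 genes against 24.4% in either direction. Nothing follows from this median or these counts, since the genes were assembled with the contrast known. Without wild type 1 the median was 0.078 and without knockout 2 it was 0.16, while it was 0.51 without knockout 1 and 0.57 without wild type 2. Relative to the wild-type mean the median was 0.20 in knockout 1 and 0.59 in knockout 2.

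**Figure D4:**
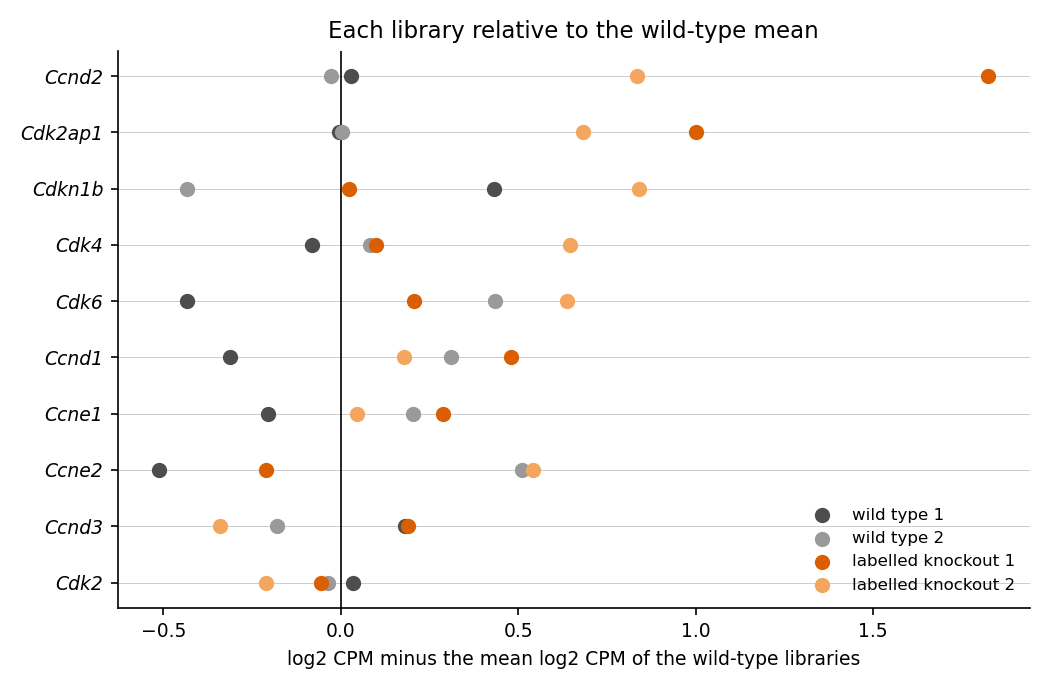
Log2 CPM of each library minus the mean of the wild-type libraries, for the 10 G1 genes in order of log2 fold change. Ccnd2 reaches 1.82 in knockout 1 and 0.84 in knockout 2, while for Cdkn1b, Cdk6, Ccnd1, Ccne1, Ccne2 and Ccnd3 the labels overlap.

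A measure that does not use the contrast is the distance between libraries of the same label. Its median over the G1 genes was 0.38 in wild type and 0.48 under the knockout label (absolute log2 difference). Over all 14194 genes tested it was 0.34 and 0.39, close to the values of the G1 genes. Over the 9459 genes that averaged 10 CPM or more it was 0.28 and 0.31. The distance was over either background in both pairs for Ccnd3, Ccne2, Cdk6 and Cdkn1b. For Cdk2 it was 0.07 and 0.16, below either background in both pairs. For Cdk2ap1 and Ccnd2 it was small in wild type (0.01 and 0.06) and larger under the knockout label (0.32 and 0.99).

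The other genes of the pathway were examined in 8 lists, and of their 108 tested genes (Ccnb3 was too low to test) 0 passed the edgeR quasi-likelihood test (background 0%). DESeq2, the edgeR likelihood ratio test and limma-voom also called 0 of them. At an unadjusted p under 0.05 by that test there were 2 of the 108 genes, both lower under the knockout label. That share is close to the 1.70% of all genes tested, so the count sets these lists apart in no way. The 2 genes were Cdkn2a and Ccna1, which are named because of their values. Cdkn2a, which encodes the CDK4 and CDK6 inhibitor p16 and, from another reading frame, the p53 activator ARF, gave 302 and 230 counts in wild type and 94 and 103 under the knockout label. Its log2 fold change was -1.39 (SE 0.39, edgeR adjusted p = 1.00), and counts per gene do not separate the products. Ccna1, the germ-cell cyclin A, gave 44 and 28 counts in wild type and 9 and 4 under the knockout label, a log2 fold change of -2.41 (SE 0.72, edgeR adjusted p = 1.00).

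Among 17 genes of the RB family and E2F factors, which D- and E-type cyclin kinases act on, 6 were positive and 11 negative, with a median log2 fold change of -0.08. Rb1 itself had 38.6 and 40.4 CPM in wild type and 33.3 and 31.0 CPM under the knockout label, a log2 fold change of -0.30 (SE 0.25). E2f4, the most abundant, was at 0.03 (SE 0.20), E2f1 at -0.08 (SE 0.25), and the E2F partners Tfdp1 and Tfdp2 at -0.17 (SE 0.27) and -0.30 (SE 0.24). Libraries were separated for 2 of the 17 genes on the higher side, against 11.7% of all genes tested, and for 4 on the lower side, Rb1 and Tfdp2 among them, against 12.7%.

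The 7 other CDK inhibitors had a median of 0.02, with 4 positive and 3 negative. Cdkn1a, which encodes p21 and was the most abundant, had 202 CPM in wild type 1 and 76.2 in wild type 2, a wider gap than to the 130 and 94.3 CPM of the libraries labelled knockout. Cdkn1c, the imprinted inhibitor p57, had 35.6 and 23.6 CPM in wild type, 55.4 in knockout 1 and 15.8 in knockout 2. Cdkn2d, which encodes p19, was at 0.02 (SE 0.40).

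Genes that set CDK activity, from activating kinases and phosphatases to the inhibitory kinases Wee1 and Pkmyt1, had a median of -0.08 over 10 genes (5 positive, 5 negative). Cdc25a, the phosphatase that activates CDK2, was at -0.25 (SE 0.21). It was the 1 gene of the 10 with separated libraries on the lower side, against 12.7% of all genes tested. On the higher side there was also 1, against 11.7%. Wee1, the inhibitory kinase, was at 0.09 (SE 0.22) and Cks1b, a CDK-binding subunit, at 0.01 (SE 0.22). Among 12 genes for the turnover of G1 cyclins and p27, 7 were positive and 5 negative, with a median of 0.02. Skp2, the F-box protein that targets p27, had 84.6 and 127 CPM in wild type and 97.4 and 79.6 CPM under the knockout label. Usp28, a deubiquitinase, was at -0.27 (SE 0.28), and the ligase subunits Skp1 and Cul3 were at -0.01 (SE 0.20) and 0.02 (SE 0.25).

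Genes that E2F switches on lay close to 0. The 20 replication licensing and E2F target genes had a median of -0.02, with 10 positive and 10 negative. Mcm5, Mcm2 and Mcm3, subunits of the replicative helicase, were at 0.07 (SE 0.20), 0.06 (SE 0.19) and 0.21 (SE 0.21). The 14 tested genes of S, G2 and M phase, mostly cyclins and kinases together with Top2a, Mki67 and the transcription factor Foxm1, had a median of -0.03, with 6 positive and 8 negative. Top2a, the topoisomerase of dividing cells, was at -0.14 (SE 0.19), the proliferation marker Mki67 at 0.16 (SE 0.22) and Bub1b, a checkpoint kinase, at -0.01 (SE 0.26). Of the 14 genes, 5 had separated libraries on the lower side, against 12.7% of all genes tested, and 1 on the higher side, against 11.7%. Apart from this list and that of the RB family and E2F factors, no list had more than 1 separated gene on either side.

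The 15 genes of growth-factor and MYC input had a median of 0.11, with 10 positive and 5 negative. Etv5, an ETS factor downstream of FGF, was at 0.11 (SE 0.24), Etv4 at -0.04 (SE 0.34) and Spry4, a feedback inhibitor of the same pathway, at 0.04 (SE 0.53). CDK2AP2, the paralog of CDK2AP1, and the NuRD subunits had a median of 0.02 over 13 genes, with 7 positive and 6 negative. Cdk2ap2 had 37.0 and 18.98 CPM in wild type and 29.7 and 25.6 CPM under the knockout label, so unlike Cdk2ap1 its labels overlapped. The subunits Chd4, Gatad2a and Rbbp4 were at 0.13 (SE 0.22), -0.13 (SE 0.22) and 0.02 (SE 0.20).

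**Figure D5:**
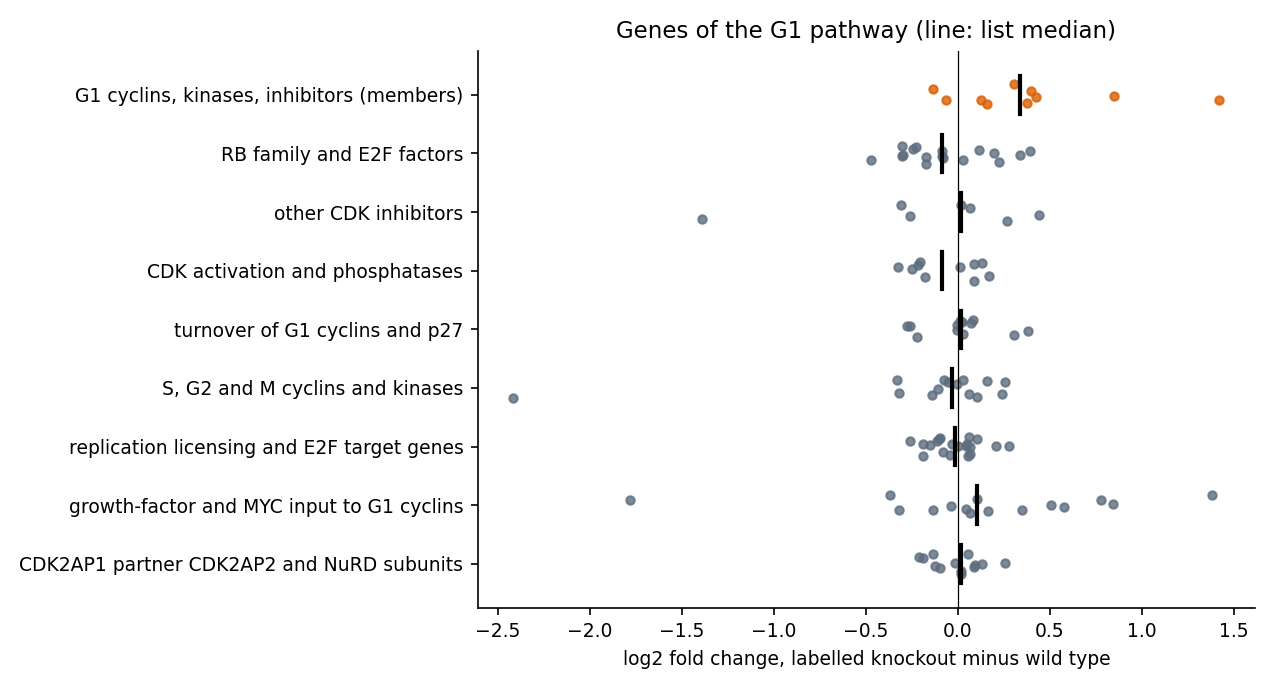
Log2 fold change, labelled knockout minus wild type, of the 10 G1 genes and of the tested genes of the 8 other lists, with a line at each median. List medians lie between -0.08 and 0.11, against 0.34 for the G1 genes, which were chosen with this contrast known.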

How the data were processed

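RNA-seq libraries of 50 bp reads from 2 wild-type samples and 2 samples labelled knockout were analysed. The authors deposited whole-number read counts per gene without normalization, made with HISAT2 and featureCounts on mm10 per the submitters' processing notes. Not given in the sources used here are versions, annotation, strand setting and the handling of multiply matching reads. In GENCODE annotation 7 of the 10 genes share exon bases with a gene on the opposite strand (Ccnd1, Ccnd2, Ccnd3, Ccne2, Cdk2, Cdk4 and Cdk6), whose reads may be mixed in, and Ccnd3 has a processed pseudogene copy.

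Symbols were assigned to 24061 of 24116 Entrez numbers from RefSeq GRCm38.p6. Groups and replicate numbers come from the sample titles. Count columns headed Control were matched to the wild type by number.

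Counts were filtered with filterByExpr, scaled by TMM and tested with edgeR 4.0.16 (quasi-likelihood F test, genotype alone) in R 4.3.3, with Benjamini-Hochberg adjustment over 14194 genes and a threshold of 0.05. SE is the size of the log2 fold change over the root of F. Log2 CPM used a prior count of 2. Libraries are separated when both of one label lie on the same side of both others. Exon lengths are unions of GENCODE vM21 exons. The fits were tested on simulated data. A count of 0 allows up to 3 counts. Alternatives were other scalings and filters, DESeq2 1.42.0, limma-voom 3.58.1, the edgeR likelihood ratio test, a threshold of 0.01, a replicate term and each library left out.

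The G1 genes and all lists were chosen with earlier results of these data known. Named genes are all 10 G1 genes, Kdm2a, the 3 list members with the highest mean CPM, the fixed genes Rb1, E2f1, Cdkn1a, Myc, Mycn, Skp2 and Cdk2ap2, and the 5 genes nearest in profile to Ccnd2. Cdkn2a, Ccna1, Egr1, Jun and Fos fall outside this rule and were chosen after their values were seen. Summed marker lists are for stem cells, fibroblasts, endoderm, mesoderm, neural cells and trophoblast.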

Additional observations from a re-analysis of the deposited data

How the results depend on the processing

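Over 9 settings with all 4 libraries, none of the 10 log2 fold changes turned its sign and all 90 values stayed within 1 pooled SD of the values reported. With 1 library left out 35 of 40 did, and 4 genes turned sign in at least 1 case: Ccnd3, Ccne1, Ccne2 and Cdkn1b. The pooled SD is the spread between libraries of a label on the log2 scale, from 0.085 for Cdk2 to 0.63 for Ccne2. It is a loose bound, under which the change of Cdk6 from 0.37 to 0.0040 without wild type 1 also counts as within. These counts therefore do not show that the values are stable. The median log2 fold change over the 10 genes ranged from 0.078 to 0.57 over the libraries left out. The count of genes called was 2 with DESeq2 and 4 with edgeR's likelihood ratio test (each of them lower), and ranged from 0 to 91 with 1 library left out, the 91 without knockout 1 and 8 without knockout 2. Counts of 0 among the other pathway genes held under every setting run. A comparison of scalings added after the data were seen gave 4 genes with separated libraries under 3 scalings and 3 with library totals only, which lost Cdk4. With a replicate block 0 genes were called and the median was 0.35. Deviations of same-numbered libraries correlated at r = 0.35 across genes, but no label ties the numbers to a shared batch, and 2 pairs are too few to tell. The coding length of proteins was not run as an alternative length. Depth limits the counting error of the scarcest gene, Ccnd2, to the intervals given, which are narrower than the distance between the libraries labelled knockout.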

Other observations

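Some growth-factor response genes set the wild-type libraries apart from each other. Egr1, an immediate early gene, had 29.0 CPM in wild type 1 and 224 in wild type 2, but 35.6 and 37.9 CPM in the libraries labelled knockout. Spry4 had 168 CPM in wild type 1 and 622 in wild type 2, with 381 and 434 CPM under the knockout label. Myc was lowest in wild type 1 as well, at 16.2 CPM against 59.9 to 72.3 CPM in the other libraries, and so were Ccnd1, Ccne1, Ccne2, Cdk4, Cdk6 and, by under 1 CPM, Cdk2ap1 among the G1 genes. Jun and Fos, partners in the AP-1 factor, instead stood apart in knockout 2, with 36.3 and 20.5 CPM, against 6.58 to 9.90 CPM for Jun and 4.49 to 7.11 CPM for Fos in the other libraries. What these differences share was not tested.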
